A study of Mus musculus with 12 samples.

Results

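The Toll-like receptors expressed in tumor-infiltrating myeloid cells, their co-receptor Cd14 and their adaptor Myd88 were followed in the RNA bound by YTHDF2 and in the matching input RNA. The 10 genes were chosen by name out of 54446 genes counted, and the receptors were split by where the protein acts. The 10 genes and the lists of pathway genes used below were chosen with earlier results of these data known. Their counts set against the shares of all genes are therefore descriptive. Tlr1, Tlr2, Tlr4 and Tlr6 make up the 4 cell surface receptors, and Tlr7, Tlr8, Tlr9 and Tlr13 the 4 endosomal receptors. All 10 passed the filter on low counts in every comparison.

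The libraries came from CD11b+ myeloid cells isolated from subcutaneous MC38 tumors, which derive from a mouse colon carcinoma, in wild-type mice that carried the floxed Ythdf2 allele (Ythdf2 f/f) without Cre. Tumors were left unirradiated (Ctrl) or received 1 local dose of 20 Gy (IR), and cells were taken 3 days later. Cells of 5 mice were pooled for each of 3 pools per condition, and each pool gave 1 Input and 1 YTHDF2 IP library, 12 in all. The study calls the pools technical replicates, so the p-values measure the spread between pools, which may be technical. RIP-seq, the assay used, sequences the RNA that comes down with an antibody to a protein. The study's methods describe total RNA from a lysate, part of it kept as Input, and an antibody from Aviva, whereas the sample labels name poly(A) RNA isolated before the RIP and an Abcam antibody. No library from an IgG control or from cells without YTHDF2 was used here, so the IP over Input ratio includes any RNA that the beads or the antibody bound by itself.

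Each Toll-like receptor senses its own class of microbial ligand. Surface receptors meet lipids and lipoproteins of the bacterial envelope, while endosomal receptors meet nucleic acids after uptake. Nearly all of them pass the signal to the adaptor MYD88, which gathers IRAK kinases and leads to NF-kB and to inflammatory cytokines. YTHDF2 is a reader of N6-methyladenosine (m6A) that carries marked mRNA to decay, and m6A is written mostly in a short consensus around a GGAC core.

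The transcripts of the 10 genes were searched for GGACT, on the sense strand, as the commonest letters of that consensus. Windows of 25 bases from the mm10 transcripts of GENCODE M21 follow, with GGACT in capitals and 10 bases on either side. They are the windows closest to the stop codon for the genes on which the comparisons below turn, Tlr2, Tlr4, Tlr8, Tlr13 and Myd88, and 1 window that Tlr1 and Tlr6 share letter for letter.
Tlr2, coding, chr3:83836610-83836634, minus strand: agtacgaactGGACTtctcccactt
Tlr4, coding, chr4:66841010-66841034, plus strand: gtcagaatgaGGACTgggtgagaaa
Tlr8, coding, chrX:167243254-167243278, minus strand: aaaggctacaGGACTtcatccacat
Tlr13, 3′ UTR, chrX:106159763-106159787, plus strand: agagtagggaGGACTgcttggaaaa
Myd88, coding, chr9:119337447-119337471, minus strand: cgatgaagaaGGACTttcccagtat
Tlr1, coding, chr5:64925506-64925530, minus strand: ctgcactgagGGACTtccacatgtc
Tlr6, coding, chr5:64953797-64953821, minus strand: ctgcactgagGGACTtccacatgtc

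All 10 transcripts held GGACT, with 3 to 9 matches each and a median of 1.69 per kb. Of 14453 protein-coding genes tested, 91.9% held at least 1 match, with a median of 1.07 per kb. Tlr8 had the fewest, at 0.874 per kb, and Tlr6 the most, at 2.45 per kb. A match is a description of the sequence and does not show that the site is methylated or bound. The distance of the printed window from the stop codon was 103 bases in Myd88, 141 in Tlr13, 202 in Tlr2, 457 in Tlr4 and 512 in Tlr8.

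The genes also share an unusual layout. In 8 of the 10, more than 90% of the coding bases lay in 1 exon, against 8.68% of protein-coding genes tested, and Tlr4 stood just under that at 89.7%. Myd88, with 36.9%, did not share it. Protein-coding genes of that layout were more often over Input in the IP than the others, 50.3% against 31.2% in Ctrl and 44.0% against 27.8% in IR, which sets the background for the receptors.

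Tlr1 and Tlr6 lie next to each other on chromosome 5, at 64924679-64933563 and 64952031-64960097 on the minus strand, and their transcripts contain an identical run of 229 bases. Of all 100-base windows, 8.85% of those in Tlr1 and 7.24% of those in Tlr6 occur in the other gene, so part of the reads of this pair may be lost or assigned to the wrong partner and their values are uncertain. Tlr7 and Tlr8 are neighbors on chromosome X, yet their longest identical run was 13 bases. Myd88 (chromosome 9, 119335934-119341411, minus strand) shares 290 exon bases with Acaa1a on the opposite strand. Whether the counting used strand is not given in the sources used here, so reads in that overlap cannot be told apart.

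The 12 libraries held 27852948 to 42382532 gene counts, so Myd88 rested on 4292 to 12807 counts per library and Tlr8 on 64 to 204. Reads that the counting assigned to no gene feature were 27.0% ± 0.026 (SD, n = 3) of reads in Ctrl Input, 24.7% ± 0.065 in IR Input, 42.3% ± 0.46 in Ctrl IP and 51.4% ± 2.4 in IR IP. All 7 myeloid markers examined, Itgam (CD11b) among them, were present in every library. In the Input, the summed level of 5 neutrophil markers was 5743 to 6473 CPM (counts scaled to an equal library total) in Ctrl and 8096 to 8837 CPM in IR. The sum of 5 macrophage markers was 164 to 171 CPM in Ctrl and 140 to 145 in IR, but its members were split. Mrc1 (-0.46) and Apoe (-0.35) were lower in IR on the log2 scale, and C1qa (0.60), C1qb (0.46) and C1qc (0.38) were higher. Markers of T and NK cells summed to less than 1 CPM in every Input library, with Trac at 0 in Ctrl. In bulk samples like these, fewer cells of a type and less RNA per cell cannot be told apart.

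Myd88 and Tlr2 dominated the expressed set. In Ctrl Input, ordered by CPM per kb of exon, Myd88 stood at 99.99 ± 3.8 (SD, n = 3), followed by Tlr2 at 36.4 ± 1.1, Cd14 at 18.1 ± 1.2, Tlr13 at 12.3 ± 0.97 and Tlr4 at 6.04 ± 0.32. The remaining receptors were low, with Tlr7 at 1.98 ± 0.14, Tlr6 at 1.58 ± 0.099, Tlr8 at 1.31 ± 0.18, Tlr9 at 1.16 ± 0.19 and Tlr1 at 0.541 ± 0.098. Among neighbors in this order, Tlr8 and Tlr9 overlapped between pools, and the other pairs did not.

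The upper 5 places were in the same order in IR Input. Below them, Tlr7 at 2.39 ± 0.27 and Tlr6 at 1.86 ± 0.31 CPM per kb overlapped. Tlr1 at 0.811 ± 0.12, Tlr8 at 0.739 ± 0.23 and Tlr9 at 0.512 ± 0.11 CPM per kb each overlapped the next.

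**Figure D1:**
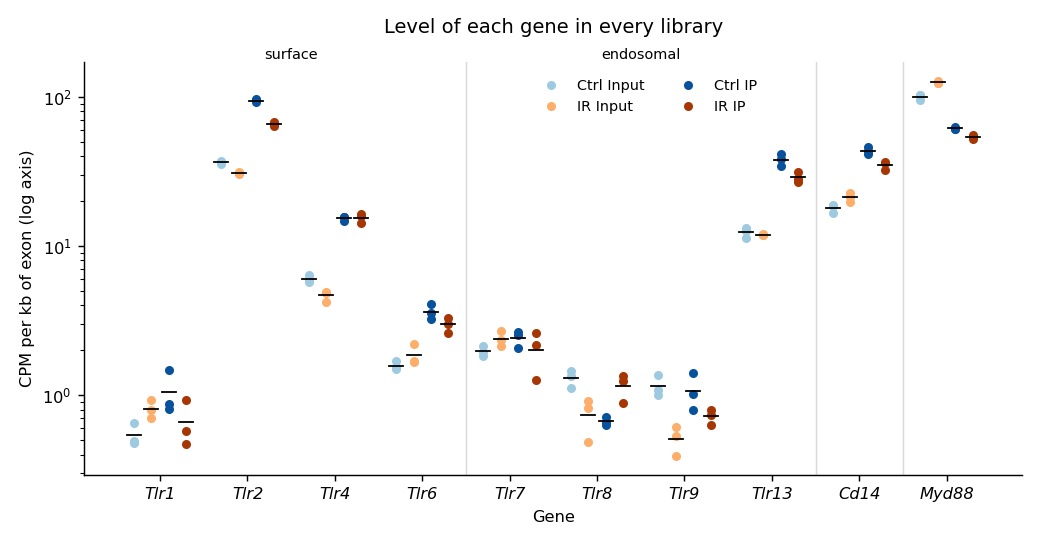
Level of each gene in every library, as CPM per kb of exon on a log axis, with 3 points per group (Ctrl Input, IR Input, Ctrl IP, IR IP) and a bar at the mean. Myd88 is the highest in both Inputs, at 99.99 and 125 on average, and Tlr2 is the highest in both IPs, at 94.3 and 66.1.

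In the IP the order turned at the top. Tlr2 reached 94.3 ± 2.4 CPM per kb in Ctrl IP, above Myd88 at 61.7 ± 1.2, with no overlap, and Tlr2 was above Myd88 in IR IP too, at 66.1 ± 1.9 against 53.9 ± 1.7. Within each family 1 gene carried most of the level. Tlr2 made up 79.6% to 82.8% of the summed surface receptor level per kb in the Input libraries and 76.0% to 83.0% in the IP libraries. Tlr13 made up 72.3% to 77.4% of the summed endosomal level in the Input and 86.9% to 91.1% in the IP. Endosomal receptors together held 26.5% to 28.3% of the summed receptor level in Ctrl Input, 28.0% to 30.1% in IR Input, 25.0% to 28.9% in Ctrl IP and 26.2% to 29.9% in IR IP.

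Binding by YTHDF2 was compared next, as IP against Input within each condition. In Ctrl, the quasi-likelihood test of edgeR, with p-values adjusted by the Benjamini-Hochberg method, placed 7 of the 10 genes higher and 2 lower in the IP, against 34.1% higher and 34.6% lower among 17416 genes tested. The median log2 fold change was 1.16 over the 10 genes and 0.018 over all genes tested. All 4 surface receptors were higher, and of the 4 endosomal receptors 2 were higher and 1 lower. In IR, 5 of the 10 were higher and 1 lower, against 32.1% and 30.4% of 18650 genes, with medians of 0.72 and 0.10. Among protein-coding genes with over 90% of their coding bases in 1 exon, as in 8 of the 10, more were higher. Their share was 50.3% in Ctrl and 44.0% in IR, with medians of 0.55 and 0.58. The count of 5 of 10 in IR was near that share. Scaling by library size alone moved the median of all genes by -0.18 in Ctrl and 0.15 in IR, and no direction of a called gene turned with it.

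Tlr2, the receptor for bacterial lipoproteins, was bound to nearly the same degree in each pool of a condition. Its log2(IP/Input) was 1.38, 1.35 and 1.39 in the 3 Ctrl pools and 1.15, 1.10 and 1.04 in the 3 IR pools. Every IR pool was below every Ctrl pool, and all were well above 0. The fitted log2 value for IP against Input was 1.45 ± 0.044 (SE, adjusted p = 6.72e-15) in Ctrl and 1.15 ± 0.053 (adjusted p = 1.02e-08) in IR, or 2.73-fold and 2.22-fold.

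Tlr4, which senses lipopolysaccharide together with MD-2 and CD14, ran the other way. Its log2(IP/Input) was 1.39, 1.44 and 1.21 in the Ctrl pools and 1.89, 1.54 and 1.74 in the IR pools. The lowest IR pool lay above the highest Ctrl pool. The fitted values were 1.42 ± 0.066 (SE, adjusted p = 2.27e-12) in Ctrl and 1.78 ± 0.091 (adjusted p = 2.42e-08) in IR, the latter a 3.45-fold excess of IP over Input.

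Tlr6 and Tlr1 form heterodimers with TLR2 and set its preference between kinds of lipopeptide. Tlr6 had a log2(IP/Input) of 1.07, 1.11 and 1.41 in Ctrl and 0.65, 0.96 and 0.44 in IR, with no overlap. Its fitted values were 1.28 ± 0.15 (SE, adjusted p = 6.11e-07) in Ctrl and 0.74 ± 0.19 (adjusted p = 0.00638) in IR. Tlr1, the lowest of the surface group, varied widely. Its pools gave 1.60, 0.81 and 0.31 in Ctrl and -0.75, -0.28 and -0.0078 in IR, from 51 to 155 counts per library. It was higher in the Ctrl IP, at 1.04 ± 0.31 (SE, adjusted p = 0.0064), and not called in IR, at -0.25 ± 0.38 (adjusted p = 0.596), where the sign turned to 0.023 without IR IP replicate 1.

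The endosomal receptors did not move as a group. Tlr13, a receptor for bacterial ribosomal RNA, was the most strongly bound of the 10 genes in Ctrl. Its log2(IP/Input) was 1.86, 1.61 and 1.38 in Ctrl and 1.15, 1.40 and 1.26 in IR, and the highest IR pool overlapped the lowest Ctrl pool. The fitted values were 1.70 ± 0.069 (SE, adjusted p = 3.59e-13) in Ctrl and 1.33 ± 0.072 (adjusted p = 3.84e-08) in IR, or 3.24-fold and 2.52-fold.

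Tlr8, an RNA sensor, was the only endosomal receptor with a called deficit in the IP. Its log2(IP/Input) was -0.63, -1.18 and -0.998 in Ctrl and -0.054, 0.71 and 1.34 in IR, so the pools of the conditions did not overlap. In Ctrl the fitted value was -0.88 ± 0.23 (SE, adjusted p = 0.00296). In IR it was 0.70 ± 0.34 (adjusted p = 0.0965), and it passed the threshold without IR IP replicate 1, at 0.94 (adjusted p = 0.0269), and with scaling by library size alone or a filter of 10 counts in every library, at 0.85 and 0.82.

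Tlr7, the sensor of viral RNA encoded beside Tlr8, sat near equal levels in IP and Input. Its pools gave 0.25, 0.17 and 0.43 in Ctrl and -0.30, 0.28 and -0.88 in IR, which overlapped. The Ctrl value of 0.36 ± 0.15 (SE, adjusted p = 0.0446) passed narrowly. With the pool as a block, since an IP and its Input come from the same lysate, it was 0.36 with adjusted p = 0.059. The call was also lost without Ctrl Input replicate 1, 2 or 3 or Ctrl IP replicate 1 or 3, at 0.29 to 0.41 (adjusted p = 0.0558 to 0.188). Other settings without the call were library size only (0.18, adjusted p = 0.311), no filter (0.25, adjusted p = 0.245) and all 12 libraries in 1 fit (0.29, adjusted p = 0.256). In IR the value was -0.19 ± 0.25 (adjusted p = 0.539), and 0.13 without IR IP replicate 3.

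Tlr9, the receptor for unmethylated CpG DNA, had no called difference between IP and Input. Its pools gave 0.37, 0.016 and -0.78 in Ctrl and 0.99, 0.46 and 0.047 in IR, an overlap on 53 to 194 counts per library. The fitted values were -0.027 ± 0.25 (SE, adjusted p = 0.931) in Ctrl and 0.55 ± 0.38 (adjusted p = 0.228) in IR. The Ctrl sign turned without Ctrl Input replicate 3 (0.093), Ctrl IP replicate 2 (0.047) or Ctrl IP replicate 3 (0.18).

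Cd14 and Myd88 fell on opposite sides. Cd14, the glycoprotein that hands lipopolysaccharide to the TLR4 complex, had a log2(IP/Input) of 1.30, 1.19 and 1.32 in Ctrl and 0.87, 0.79 and 0.51 in IR. All IR pools were below all Ctrl pools and above 0. The fitted values were 1.35 ± 0.072 (SE, adjusted p = 1.82e-11) in Ctrl and 0.78 ± 0.091 (adjusted p = 2.26e-05) in IR.

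Myd88 was depleted from the IP in every pool. Its log2(IP/Input) was -0.65, -0.74 and -0.69 in Ctrl and -1.20, -1.29 and -1.15 in IR, again without overlap. The fitted values were -0.62 ± 0.043 (SE, adjusted p = 6.37e-10) in Ctrl, 1.54-fold lower in the IP, and -1.16 ± 0.048 (adjusted p = 4.74e-09) in IR, 2.23-fold lower.

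**Figure D2:**
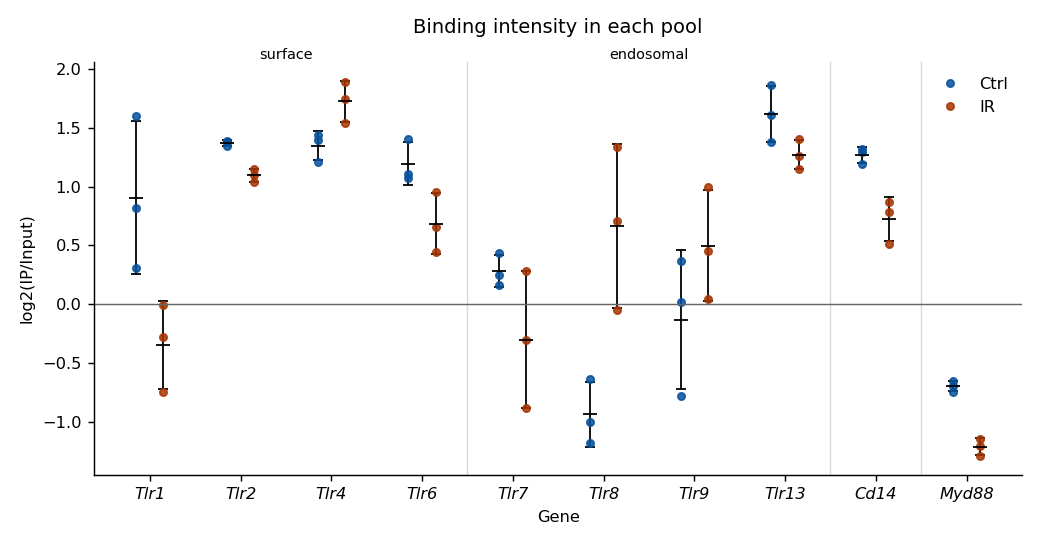
log2(IP/Input) of each gene in the 3 Ctrl and the 3 IR pools (points), with the mean and SD (bars), where the line at 0 marks equal levels in IP and Input. IR pools lie below Ctrl pools for Tlr1, Tlr2, Tlr6, Cd14 and Myd88, above them for Tlr4 and Tlr8, and overlap them for Tlr7, Tlr9 and Tlr13.

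Whether IR changed the IP over Input ratio was tested as the interaction over all 12 libraries. The ratio was higher in IR for 2 of the 10 genes, Tlr8 and Tlr4, and lower for 4, Myd88, Cd14, Tlr2 and Tlr13, against 6.28% higher and 13.9% lower among 20720 genes tested. The median was -0.43 over the 10 genes and -0.083 over all genes. Pools did not overlap for 7 of the 10 genes, with IR below Ctrl in 5 and above it in 2, against 21.6% and 13.8% of all genes. Scaling by library size alone moved the median of all genes by 0.31 and the share of higher calls from 31.1% to 76.5%, so the size of each ratio difference depends on the scaling. The share was 38.6% with the size factors of DESeq2.

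The ratio of Tlr8 rose by the most. The difference between IR and Ctrl was 1.61 ± 0.41 on the log2 scale (SE, adjusted p = 0.00701), or 3.05-fold, and it stayed called in all 19 alternatives, from 1.38 to 1.92. For Tlr4 it was 0.38 ± 0.11 (adjusted p = 0.0183), or 1.30-fold, and it was 0.69 under library size scaling alone. The Tlr4 call was lost without Ctrl Input replicate 3 (0.34, adjusted p = 0.0623) or IR Input replicate 1 (0.32, adjusted p = 0.0675).

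Myd88 had the firmest fall in its ratio, by 0.51 ± 0.064 on the log2 scale (SE, adjusted p = 6.61e-06), and it was called in all 19 alternatives, from -0.54 to -0.20. Cd14 fell by 0.54 ± 0.12 (adjusted p = 0.00222) and lost the call under library size scaling alone, at -0.23 (adjusted p = 0.223). Tlr2 fell by 0.27 ± 0.066 (adjusted p = 0.00511), but its sign turned under library size scaling, to 0.040. The Tlr2 call was lost without Ctrl IP replicate 2 (-0.20, adjusted p = 0.0651), Ctrl IP replicate 3 (-0.19, adjusted p = 0.068) or IR IP replicate 3 (-0.18, adjusted p = 0.0501).

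Tlr13 passed with the least support, its ratio falling by 0.34 ± 0.11 (SE, adjusted p = 0.0271). The call was lost without any 1 of 8 libraries, namely Ctrl Input replicate 1, Ctrl IP replicates 1 and 2, IR Input replicates 1, 2 and 3 and IR IP replicates 1 and 3, at -0.35 to -0.22 (adjusted p = 0.0502 to 0.183). It was also lost under library size scaling alone (-0.031, adjusted p = 0.898), with the size factors of DESeq2 (-0.28, adjusted p = 0.0614), with coding genes only (-0.26, adjusted p = 0.0779) and with 10 counts in every library (-0.23, adjusted p = 0.102). The other values were -1.27 ± 0.49 for Tlr1 (adjusted p = 0.0783), -0.52 ± 0.24 for Tlr6 (adjusted p = 0.149), -0.53 ± 0.30 for Tlr7 (adjusted p = 0.256) and 0.60 ± 0.42 for Tlr9 (adjusted p = 0.376). Tlr1 passed without IR IP replicate 3, at -1.53 (adjusted p = 0.0245).

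The change with IR in the Input, that is in the RNA of the cells themselves, was a separate comparison. Of the 10 genes 1, Myd88, was higher and 5 were lower, against 21.0% higher and 23.9% lower of 16914 genes tested, and the lower ones were Tlr2, Tlr4, Tlr8, Tlr9 and Tlr13. The median log2 fold change of the 10 was 0.0094, against 0.0072 for all genes. Among the endosomal receptors 3 of 4 were lower and among the surface receptors 2 of 4.

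Tlr9 fell furthest. Its level was 3.77, 3.52 and 4.77 CPM in the Ctrl Inputs and 1.36, 1.85 and 2.13 CPM in the IR Inputs, and every IR library was below every Ctrl library. The log2 fold change was -1.25 ± 0.21 (SE, adjusted p = 2.01e-05), 2.38-fold lower. Tlr8 went from 4.002, 5.24 and 4.82 CPM to 3.29, 2.93 and 1.73 CPM, also without overlap, a change of -0.90 ± 0.20 (adjusted p = 5.98e-04).

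Markers of plasmacytoid dendritic cells, a cell type known for Tlr7 and Tlr9, were lower in IR, as were Tlr9 and Tlr8, while Tlr7 was not called, at 0.20 (adjusted p = 0.171). The sum of their 5 markers was 68.1 to 77.8 CPM in the Ctrl Inputs and 49.1 to 51.4 CPM in the IR Inputs. Siglech, a defining marker, was at 15.5 to 18.8 CPM in Ctrl and 4.61 to 5.58 CPM in IR. Of the 5, 4 were lower in IR and the other, Klk1, was at or near 0. Markers of B cells, which also express Tlr9, summed to 22.1 to 23.6 CPM in Ctrl and 32.0 to 35.3 CPM in IR. Their part in the change of Tlr9 and Tlr8 was not tested.

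The abundant surface receptors shifted less but evenly. Tlr2 had 106, 113 and 111 CPM in the Ctrl Inputs and 92.0, 93.6 and 94.2 CPM in the IR Inputs, with no overlap. Its log2 fold change was -0.32 ± 0.039 (SE, adjusted p = 1.71e-07). Tlr4 had 33.2, 32.0 and 35.5 CPM in Ctrl and 23.6, 27.3 and 27.0 CPM in IR, a change of -0.45 ± 0.069 (adjusted p = 5.46e-06).

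Both Tlr2 and Tlr4 were thus lower in the RNA of irradiated samples, and the call held in all alternatives for each. Myd88 was the exception, with 246, 264 and 262 CPM in the Ctrl Inputs and 319, 329 and 317 CPM in the IR Inputs. It rose by 0.24 ± 0.033 on the log2 scale (adjusted p = 9.5e-07), 1.18-fold. In the same Inputs the neutrophil marker sum was higher in IR, and the macrophage markers were split, with Mrc1 and Apoe lower and the 3 C1q genes higher. Their part in these changes was not tested.

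Tlr13 was close to the threshold. It had 48.6, 53.8 and 56.9 CPM in the Ctrl Inputs and 52.0, 50.99 and 50.8 CPM in the IR Inputs, which overlapped. The change of -0.13 ± 0.053 (SE, adjusted p = 0.0468) was no longer called without Ctrl Input replicate 2 or 3 or IR Input replicate 1, 2 or 3, at -0.14 to -0.087 (adjusted p = 0.0619 to 0.25), or with DESeq2, at -0.13 (adjusted p = 0.0782).

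Cd14 was not called, at 0.15 ± 0.065 (SE, adjusted p = 0.0607), with 29.0, 32.8 and 32.1 CPM in the Ctrl Inputs and 34.2, 36.9 and 39.1 CPM in the IR Inputs. Every IR library was above every Ctrl library, and the call was made without IR Input replicate 1, at 0.20 (adjusted p = 0.0213). The values of the other genes were 0.50 ± 0.23 for Tlr1 (adjusted p = 0.0745), 0.20 ± 0.12 for Tlr7 (adjusted p = 0.171) and 0.16 ± 0.14 for Tlr6 (adjusted p = 0.359). Tlr1 passed without Ctrl Input replicate 3, at 0.66 (adjusted p = 0.0494).

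Calls between IR and Ctrl were fewer in the IP than in the Input, for these genes and among all genes. In the IP, 3 of the 10 were lower in IR, Tlr2, Tlr13 and Cd14, against 9.85% of 19255 genes tested. None of the 10 was higher by edgeR, against 6.12% of all genes, with 1 of them, Tlr8, at an unadjusted p under 0.05 and 0 called by DESeq2. Scaling by library size alone moved the median of all genes by 0.205 and the share of higher calls from 38.3% to 76.3%, and left 1 of the 3 calls.

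Tlr2 stayed called under every alternative. Its IP level was 276, 286 and 290.1 CPM in Ctrl and 204, 200.03 and 193 CPM in IR, far from overlapping. The log2 fold change was -0.50 ± 0.056 (SE, adjusted p = 9.79e-06), 1.41-fold lower, next to -0.32 in the Input.

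Tlr13 had 177, 164 and 149 CPM in the Ctrl IP and 116, 135 and 121 CPM in the IR IP, without overlap. It fell by 0.39 ± 0.081 on the log2 scale (SE, adjusted p = 0.00354). Cd14 had 71.3, 75.1 and 80.2 CPM in Ctrl and 62.6, 63.7 and 55.7 CPM in IR, also without overlap. Its change of -0.30 ± 0.092 (adjusted p = 0.0348) was not called without Ctrl IP replicate 1 (-0.34, adjusted p = 0.0582), 2 (-0.30, adjusted p = 0.106) or 3 (-0.26, adjusted p = 0.157), or without IR IP replicate 3 (-0.24, adjusted p = 0.107).

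Tlr4 presented a different pattern. Its IP level was 87.3, 87.0 and 82.1 CPM in Ctrl and 87.6, 79.8 and 90.7 CPM in IR, which overlapped, while its Input level fell. The log2 fold change in the IP was 0.021 ± 0.083 (SE, adjusted p = 0.906), with the sign turning without Ctrl IP replicate 3 (-0.0071) or IR IP replicate 3 (-0.0089).

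Myd88 had the reverse combination. Its IP level was 157, 158 and 162 CPM in Ctrl and 138, 134 and 143 CPM in IR, with all IR libraries lower, while its Input level rose. The change of -0.18 ± 0.064 (SE, adjusted p = 0.0641) was not called in edgeR and was called in DESeq2 (-0.17, adjusted p = 0.0468), and library size scaling alone turned it to 0.022.

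Tlr8 had 2.56, 2.28 and 2.38 CPM in the Ctrl IP and 3.17, 4.82 and 4.47 CPM in the IR IP. All IR libraries were above all Ctrl libraries, yet the value of 0.80 ± 0.37 (SE) did not pass (adjusted p = 0.164). The remaining values were -0.27 ± 0.19 for Tlr6 (adjusted p = 0.384), -0.67 ± 0.44 for Tlr1 (adjusted p = 0.345), -0.24 ± 0.26 for Tlr7 (adjusted p = 0.607) and -0.56 ± 0.39 for Tlr9 (adjusted p = 0.38). Tlr7 turned to 0.010 without IR IP replicate 3.

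**Figure D3:**
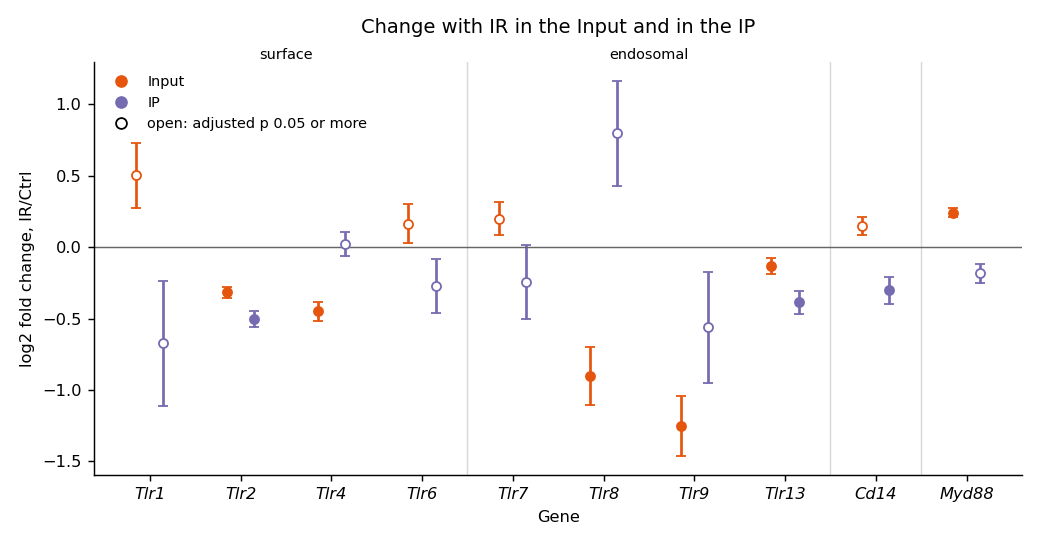
Log2 fold change of IR over Ctrl for each gene in the Input and in the IP, with bars of 1 standard error, where open points have an adjusted p of 0.05 or more. Tlr4 lies at -0.45 in the Input and 0.021 in the IP, and Myd88 at 0.24 and -0.18.

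The interaction is built from the same 12 libraries as the comparisons of Input and of IP, so the changes in the Input, in the IP and in the ratio are not independent. Set side by side, Tlr2, Tlr13 and Cd14 had their lower ratio with a lower IP level. Tlr2 and Tlr13 were called lower in the Input as well, at -0.32 and -0.13. Tlr4 and Tlr8 had their higher ratio with a lower Input level. For Tlr8 the IP value, 0.80 and not called, was of similar size to the Input value of -0.90. For Myd88 the called change besides the ratio was the higher Input level.

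The rest of the pathway was read from 44 further genes in 4 lists. In Ctrl 21 were higher and 17 lower in the IP of 43 tested, Sarm1 not being tested, with a median of 0.17, against 34.1% higher and 34.6% lower among all genes. In IR 12 were higher and 18 lower of 44, with a median of -0.066, against 32.1% and 30.4%. The interaction was lower for 16 of the 44 and higher for none, against the 13.9% and 6.28% given above, with a median of -0.21. In the Input 13 were higher and 9 lower of 43 with IR, against 21.0% and 23.9% of all genes. In the IP 1 was higher and 8 lower of 44, against 6.12% and 9.85%. DESeq2 called 2 of the 44 higher in the interaction, as many as had an unadjusted p under 0.05 in edgeR.

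Receptors outside the 10 were low, with mean CPM per kb below that of all 10 in both Inputs. In the IP their levels reached those of the lowest of the 10. Tlr12 was at 1.16 CPM per kb in Ctrl IP, against 0.67 for Tlr8, and Tlr5 at 1.22 in IR IP, against 1.16 for Tlr8. Tlr3, Tlr5, Tlr11 and Tlr12 were not called in the interaction, by edgeR or DESeq2. In the Ctrl IP 3 of the 4 were higher, against 34.1% of all genes. With IR, Tlr3 was higher in the Input, at 0.87 ± 0.33 (SE, adjusted p = 0.0319), on 29 to 113 counts per library. Its level was 0.83, 0.92 and 1.35 CPM in the Ctrl Inputs and 1.21, 3.12 and 1.73 CPM in the IR Inputs, which overlapped. Values of Tlr3 without single libraries are not given here. The direction of its fitted value was opposite to that of Tlr8, Tlr9 and Tlr13, of which Tlr13 was close to the threshold. Tlr5, the flagellin receptor, had 0.658 to 1.18 CPM in the Ctrl Inputs and 3.93 to 4.80 CPM in the Ctrl IP. Fitted IP against Input, it was at 2.28 ± 0.30 (SE, adjusted p = 3.39e-06) in Ctrl and 2.38 ± 0.32 (adjusted p = 7.72e-05) in IR.

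Partners of the receptors were split in Ctrl. Among 12 co-receptors and chaperones, 5 were higher and 6 lower in the Ctrl IP, and 0 and 7 in the IR IP, where 1 was higher by DESeq2. Among all genes, 34.1% were higher and 34.6% lower in Ctrl, and 32.1% and 30.4% in IR. Ly96 (MD-2), the lipid-binding partner of TLR4, was lower in the IP, at -0.97 ± 0.26 (SE, adjusted p = 0.0035) in Ctrl and -1.65 ± 0.34 (adjusted p = 0.00155) in IR, whereas Tlr4 and Cd14 were higher. Unc93b1, which escorts endosomal receptors out of the endoplasmic reticulum, was lower too, at -0.46 ± 0.045 (adjusted p = 5.72e-08) and -0.78 ± 0.048 (adjusted p = 1.1e-07). Of the proteases that trim endosomal receptors, Ctss (cathepsin S) was at -2.54 in Ctrl and -2.56 in IR, the lowest of the list in each, and Lgmn (legumain) at -1.57 and -2.35.

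Cd180, a receptor-like protein that pairs with Ly86, was higher in the Ctrl IP at 0.75 ± 0.10 (SE, adjusted p = 5.9e-06) and not called in IR at 0.19 ± 0.14 (adjusted p = 0.272), a call it gained without IR IP replicate 1 (0.34, adjusted p = 0.0395). Of the 12 genes, 6 had a lower ratio in IR, against 13.9% of all genes, a share that depends on the scaling as given above. Unc93b1 was among them at -0.30 ± 0.065 (adjusted p = 0.00224), and its sign turned to 0.016 under library size scaling alone. In the Input, Ly86 rose by 0.33 ± 0.060 (adjusted p = 5.13e-05) and Lbp, the serum carrier of lipopolysaccharide, fell by 0.79 ± 0.10 (adjusted p = 3.74e-07).

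Among 20 adaptors and kinases, 11 were higher and 7 lower in the Ctrl IP, against 34.1% and 34.6% of all genes, and 7 and 7 in the IR IP, against 32.1% and 30.4%. Ticam1 (TRIF), the adaptor of the MYD88-independent branch, was higher in the IP, at 1.496 ± 0.089 (SE, adjusted p = 7.43e-11) in Ctrl and 1.28 ± 0.10 (adjusted p = 1.22e-06) in IR, opposite to Myd88. Tab1, a partner of the kinase TAK1, was the most enriched at 2.102 and 1.49, and Tbk1, a kinase upstream of IRF3, the most depleted at -1.40 and -1.34. The ratio of Tab1 fell in IR by 0.59 ± 0.082 (adjusted p = 2.36e-05).

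Irak4, the kinase recruited by MYD88, was higher in the Ctrl IP at 0.58 ± 0.064 (SE, adjusted p = 3e-07) and in the IR IP at 0.22 ± 0.069 (adjusted p = 0.0182). The IR call was lost without IR Input replicate 2 (0.18, adjusted p = 0.102) or 3 (0.19, adjusted p = 0.0982). In the Input, Chuk (IKK alpha) rose by 0.29 ± 0.043 (adjusted p = 2.99e-06), Irak4 by 0.22 ± 0.046 (adjusted p = 2.63e-04), and Traf3, which restrains noncanonical NF-kB signaling, fell by 0.52 ± 0.048 (adjusted p = 1.09e-09).

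Among 8 negative regulators, 2 were higher and 4 lower in the Ctrl IP of 7 tested, and 3 and 4 in the IR IP of 8, against the same shares of all genes. Sarm1, with 14 to 81 counts in the IR IP libraries and 3 to 14 in the IR Inputs, was at 2.97 ± 0.84 in IR (SE, adjusted p = 0.00965). Its values without single libraries are not given here. Il1rl1 (ST2) was higher in the IP, at 2.27 ± 0.056 (SE, adjusted p = 4.28e-16) in Ctrl and 1.75 ± 0.095 (adjusted p = 4.05e-08) in IR. Irak3 (IRAK-M), which blocks IRAK1 and IRAK4, was lower in the IP, at -0.48 ± 0.068 (adjusted p = 7.63e-06) and -0.89 ± 0.13 (adjusted p = 1.35e-04). Tollip was lower in the Ctrl IP by -0.72 ± 0.086 (adjusted p = 9.22e-07), and Tnfaip3 (A20) fell in the IR Input by 0.22 ± 0.055 (adjusted p = 0.00183).

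Across conditions, the genes of these lists named in every comparison gave mixed values. In the Input, Unc93b1 rose by 0.098 ± 0.032 (SE, adjusted p = 0.0132), a call lost without Ctrl Input replicate 3 (0.085, adjusted p = 0.0726), and Ly96 was at 0.27 ± 0.17 (adjusted p = 0.208) and Ticam1 at 0.10 ± 0.078 (adjusted p = 0.312). Cd180 was lower by -0.23 ± 0.092 (adjusted p = 0.0456), a call lost without Ctrl Input replicate 2 or 3 or IR Input replicate 1, 2 or 3, at -0.25 to -0.15. Irak3 was lower by -0.13 ± 0.047 (adjusted p = 0.03), lost without Ctrl Input replicate 2 or 3 or IR Input replicate 2 or 3, at -0.13 to -0.099. Sigirr, an inhibitory receptor of the same family, was higher by 0.30 ± 0.11 (adjusted p = 0.0212), lost without Ctrl Input replicate 2 or 3 or IR Input replicate 3, at 0.23 to 0.27.

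In the IP, Tab1 fell with IR by 0.40 ± 0.065 (SE, adjusted p = 4.39e-04), Il1rl1 by 0.5 ± 0.087 (adjusted p = 7.56e-04) and Cd180 by 0.68 ± 0.15 (adjusted p = 0.00542). Ctss rose by 0.31 ± 0.080 (adjusted p = 0.0137), a call lost without Ctrl IP replicate 3 (0.26, adjusted p = 0.0816). Irak3 was at -0.43 ± 0.14 (adjusted p = 0.0449), lost without Ctrl IP replicate 1, 2 or 3 or IR IP replicate 1 or 2, at -0.47 to -0.29. Ly96 (-0.30, adjusted p = 0.755), Unc93b1 (-0.11, adjusted p = 0.303), Irak4 (-0.034, adjusted p = 0.841) and Ticam1 (-0.0024, adjusted p = 0.993) were not called. Of those not called in the interaction, Ly96 was at -0.65 (adjusted p = 0.351), Irak3 at -0.39 (adjusted p = 0.0713), with a call without IR IP replicate 3 (-0.49, adjusted p = 0.00416), and Ticam1 at -0.19 (adjusted p = 0.398), which turned to 0.12 under library size scaling alone.

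**Figure D4:**
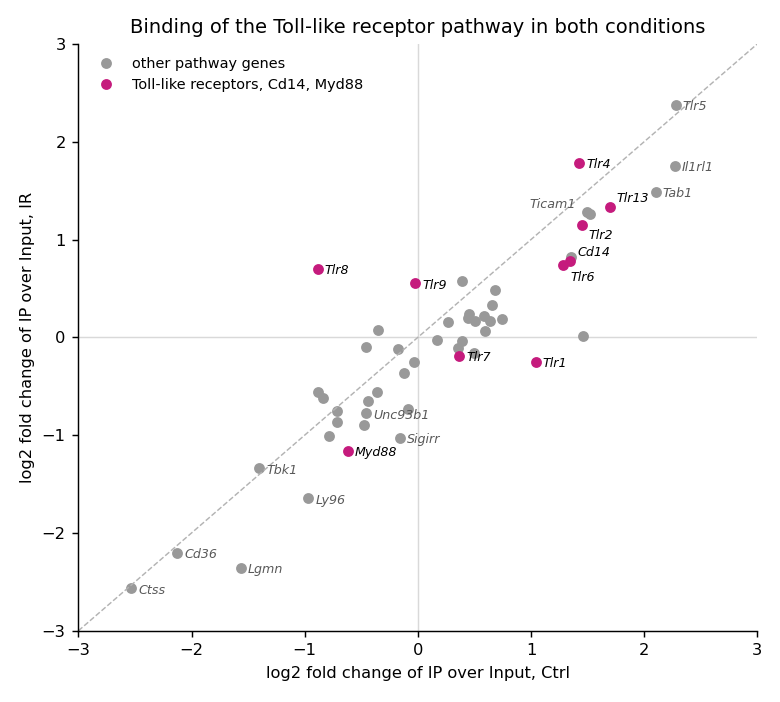
IP against Input as a log2 fold change, in Ctrl on the x axis and in IR on the y axis, for the 10 genes and the pathway genes tested in both, with a dashed line where both are equal. Tlr4 and Tlr8 lie above the line at 1.78 and 0.70 in IR, and Myd88 below it at -1.16.

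The gene whose log2 CPM was most like each member over the 12 libraries was found among protein-coding genes averaging 100 counts or more. Pearson's r was 0.997 for Tlr2 with Ppargc1b, 0.996 for Tlr4 with Nsd1, 0.989 for Tlr6 with Ppwd1, 0.997 for Tlr13 with Mpeg1, 0.992 for Cd14 with Spry2 and 0.998 for Myd88 with Rpl10a. The 12 libraries include both Input and IP, and 1198 genes reached 0.95 with Myd88 and 737 with Tlr2. Of the low receptors, Tlr6 had 419 genes over 0.95, and Tlr1, Tlr7, Tlr8 and Tlr9 had none. Their best values were 0.924 for Tlr1 with Sars, 0.88 for Tlr7 with Ankrd66, 0.898 for Tlr8 with Myo5a and 0.913 for Tlr9 with Nup214.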

How the data were processed

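The authors used Trimmomatic 0.39, HISAT (mm10, GENCODE M19) and HTSeq, and deposited whole-number counts per gene, 1 file per library. The strand option of the counting is not given in the sources used here. Reads assigned to no gene feature were left out of library sizes. GENCODE M21 gave symbols for 99.9% of 54446 identifiers. A gene entered a comparison with 10 counts or more in 3 or more of its libraries. After TMM scaling, edgeR 4.0.16 (R 4.3.3) gave quasi-likelihood p-values, adjusted by Benjamini-Hochberg over all genes tested, with a threshold of 0.05. Alternatives were DESeq2 1.42.0, other scalings, filters, features and blocks, and leaving out each library. The code was tested on simulated data. CPM values are on the TMM scale of all 12 libraries, and log2(IP/Input) per pool used a prior count of 2. Standard errors are the absolute log2 fold change over the square root of F.

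Members and gene lists were chosen with earlier results of these data known. All members are named. Of each pathway list, the largest called rise and fall with a mean of at least 100 counts in each comparison are named, with Ly96, Cd180, Unc93b1, Ticam1, Irak4 and Irak3. Sarm1, Tlr3, Tlr11 and Tlr12 are named outside this rule. IP and Input of a pool came from 1 lysate per the study's methods. Their deviations from group means over 11728 genes correlated between -0.023 and 0.040, so the counts show no pairing by number. The sample titles number the replicates and do not state that equal numbers are the same pool. The per-pool ratios assume it. The same numbers in Ctrl and IR are different mice.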

Additional observations from a re-analysis of the deposited data

Results flagged for a closer look

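The IP over Input ratio differed between IR and Ctrl by the interaction test for these genes, each given as the log2 difference, IR minus Ctrl. Among the 10 genes it was 1.61 for Tlr8, 0.38 for Tlr4, -0.27 for Tlr2, -0.34 for Tlr13, -0.51 for Myd88 and -0.54 for Cd14. For Tlr8 the ratio changed sign, from a called deficit in the Ctrl IP to an uncalled 0.70 in the IR IP, on 64 to 204 counts per library.

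Among the 44 pathway genes 16 were called, all lower, and only those named under the rule above are given here. The difference was -0.77 for Lgmn, -0.85 for Sigirr, -0.59 for Tab1, -0.54 for Cd180, -0.34 for Irak4 and -0.30 for Unc93b1. Some of the called genes not given had smaller adjusted p-values than any of these. The call of Lgmn was lost without Ctrl IP replicate 3 (-0.54, adjusted p = 0.0669). That of Irak4 was lost without Ctrl IP replicate 2 (-0.27), Ctrl IP replicate 3 (-0.24) or IR IP replicate 3 (-0.24). Sigirr lost it without Ctrl Input replicate 2 or 3, Ctrl IP replicate 3 or IR Input replicate 1 or 3, at -0.86 to -0.66. Cd180 was called only with all libraries or without Ctrl Input replicate 3 or IR IP replicate 2, and was at -0.54 to -0.45 without any 1 of the other 10 libraries.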

How the results depend on the processing

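Of 750 alternative values for the 10 genes, 682 kept direction and call, 45 lost and 10 gained the call, and 13 turned sign, and each cause was not tested. The genes with a lower interaction went from 4 to 2 with 10 counts in every library and to 1 with library size only, those higher in the IR Input from 1 to 2 with coding genes only, and those lower in the IR IP from 3 to 1 with library size only. Leaving out 1 library gave 2 to 4 lower and 1 to 2 higher in the interaction, and 1 to 2 higher in the Input. With the pool as a block, the interaction of Cd180 was not called (-0.55, adjusted p = 0.0631), and Tlr7 in Ctrl lost its call as given above. Between Ctrl and IR, a block joins same-numbered pools of different mice, so it has no meaning as a pairing there. In the Input it gave Cd14 a call (0.15, adjusted p = 0.0349), which made 2 genes higher in IR. No other call of the named genes changed with a block.

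Signs turned for Tlr9 in the Ctrl IP over Input (0.0025 with 10 counts in every library, 0.071 with coding genes, and -0.23 to 0.18 with 1 library left out). With 1 library left out, the IR IP over Input was -0.50 to 0.023 for Tlr1 and -0.34 to 0.13 for Tlr7. With library size only, the interaction was 0.040 for Tlr2, 0.12 for Ticam1 and 0.016 for Unc93b1. In the IP, IR against Ctrl, library size only gave 0.022 for Myd88, 0.096 for Unc93b1, 0.17 for Irak4 and 0.204 for Ticam1. There Tlr4 was -0.013 with no filter, Irak4 0.018 with 10 counts in every library, and Ticam1 0.050 with that filter, 0.0094 with DESeq2, 0.0093 with its size factors and 0.024 with coding genes. Leaving out 1 library gave -0.0089 to 0.084 for Tlr4, -0.465 to 0.010 for Tlr7, -0.087 to 0.010 for Irak4 and -0.089 to 0.058 for Ticam1.

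Tlr1, Tlr8 and Tlr9 rest on 51 to 204 counts per library, which limits what can be seen for them. A shift of binding shared by most genes would not be seen under TMM.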
